A study of Mus musculus with 4 samples.

Results

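Xcl1, Ccl3, Ccl4 and Ccl5 encode chemokines that natural killer (NK) cells and T cells secrete. The genes were taken as the rows of the deposited expression table that carry these symbols, 4 of 55341 gene entries. All 4 passed the filter for testing, a mean of at least 1 normalized CPM (reads per gene scaled to a common library size) over the libraries, as did 12128 genes in all. RNA sequencing was done on NK cells and on T cells sorted from subcutaneous tumours of CT26 in BALB/C mice, the strain from which this colon carcinoma line came, and the labels name no other treatment, allele or genotype. Each cell type has 2 libraries, and each library is a pool of mice, 4 mice for pool 1 and 6 mice for pool 2 of either cell type. No label says that the NK and T cells of 1 pool number came from the very same mice, which every within-pool ratio and blocked p below assumes. For the age of the mice and the markers of the sort, nothing is stated in the labels. The comparison asks how the level of each chemokine gene differed between NK cells and T cells from CT26 tumours, over all 4 libraries and within each pool.

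Chemokines are small secreted proteins that steer leukocytes through G protein-coupled receptors. XCL1 (lymphotactin) acts on XCR1, a receptor of cross-presenting dendritic cells, while CCL3 and CCL5 bind CCR1. Activated NK cells and CD8+ T cells are known sources of all of them. Memory T cells also hold CCL5 transcripts, and activated macrophages also make CCL3 and CCL4.

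Ccl3, Ccl4 and Ccl5 lie close together on chromosome 11 and Xcl1 lies apart on chromosome 1 (GRCm38, GENCODE M21). Ccl5 spans chr11:83525778-83530518 on the minus strand, Ccl3 spans chr11:83647844-83649355 on the minus strand, and Ccl4 spans chr11:83662584-83664683 on the plus strand, 13.2 kb from Ccl3. Xcl1 spans chr1:164931644-164935527 on the minus strand. The coding sequence gives each family its name, because CC chemokines carry adjacent cysteine codons near the start of the secreted part and XCL1 lacks one of that pair. The following coding stretches of 48 bases, from the GENCODE M21 transcripts on the coding strand, show this difference with cysteine codons in capitals.
Xcl1: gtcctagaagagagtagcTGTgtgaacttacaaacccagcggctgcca
Ccl3: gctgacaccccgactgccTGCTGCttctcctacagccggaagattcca
Ccl4: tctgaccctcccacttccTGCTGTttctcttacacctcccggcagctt
Ccl5: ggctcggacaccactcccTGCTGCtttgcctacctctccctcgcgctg
The stretch starts at codon 26 of 114 in Xcl1, codon 28 of 92 in Ccl3 and in Ccl4, and codon 27 of 91 in Ccl5. Beyond codon 24, Xcl1 holds 2 cysteine codons and each of the CC genes holds 4. Over the whole coding sequence, Ccl3 and Ccl4 were 68.1% identical, Ccl3 and Ccl5 62.8%, Ccl4 and Ccl5 59.9%, and Xcl1 was 41.3% to 48.0% identical to the other genes. The longest run of identical bases shared by any pair was 13 bases, and no stretch of 36 bases of these transcripts occurred on the same strand in a transcript of another gene. The labels do not state the read length. Exons of Xcl1 share 98 of their 523 bases (18.7%) with Gm20743, a noncoding gene on the opposite strand, which had 0 reads in all 4 libraries. The labels do not state whether the counting used strand, so reads of the overlap cannot be told apart.

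Promoter windows of 250 bases before to 50 after the start site were present for Xcl1 and Ccl3 in the RefSeq table (GRCm38.p6). No window was present there for Ccl4 or Ccl5, so availability alone set which genes are shown. Capitals mark matches to the 2 motifs found in both windows, the NFAT core GGAAA and the RUNX core TGTGGT, read on either strand.
Xcl1, chr1:164935473-164935772, minus strand: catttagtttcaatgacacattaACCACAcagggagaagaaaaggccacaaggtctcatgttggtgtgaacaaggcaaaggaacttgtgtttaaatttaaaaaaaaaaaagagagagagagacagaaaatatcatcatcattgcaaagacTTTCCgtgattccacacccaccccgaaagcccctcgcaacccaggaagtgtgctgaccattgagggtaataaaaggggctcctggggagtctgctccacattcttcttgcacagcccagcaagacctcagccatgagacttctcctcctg
Ccl3, chr11:83649329-83649628, minus strand: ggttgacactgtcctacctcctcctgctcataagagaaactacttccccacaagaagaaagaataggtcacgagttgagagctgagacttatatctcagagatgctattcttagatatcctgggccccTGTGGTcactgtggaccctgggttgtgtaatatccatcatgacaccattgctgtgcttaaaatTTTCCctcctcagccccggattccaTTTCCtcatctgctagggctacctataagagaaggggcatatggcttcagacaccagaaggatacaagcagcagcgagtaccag
The NFAT core occurred once in the Xcl1 window, at bases -100 to -96 from the start, and at -59 to -55 and -34 to -30 in the Ccl3 window. The RUNX core lay at -227 to -222 in Xcl1 and at -122 to -117 in Ccl3. These letters are common, since 61.3% of all 32851 windows held the NFAT core and 16.8% held the RUNX core, and the matches did not overlap each other. The other 5 motifs searched on both strands had no match in these windows. They were the TATA box TATAAA, held by 13.6% of all windows, the NF-kB motif GGGANNNNCC, held by 20.7%, the AP-1 motif TGANTCA, held by 7.81%, the T-box half-site AGGTGT, held by 13.7%, and the cAMP response element TGACGTCA, held by 1.79%. A match describes the letters in the window only.

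Gene-assigned reads numbered 2228226 and 2665928 in the NK libraries of pools 1 and 2, against 2067728 and 2893240 in the T libraries. Values are the deposited normalized CPM, scaled by the trimmed mean of M values (TMM), unless a sentence names another unit, and a log2 fold change, or log2 difference, is the NK mean of log2(value + 1) minus the T mean. The added 1 makes it too small for genes of low level. The summed markers of each sort followed the labels. The 5 NK markers summed to 1514 and 1245 in NK libraries against 57.8 and 121 in T libraries, and the 7 T cell markers to 67.1 and 51.4 in NK libraries against 2173 and 1901 in T libraries. At a limma p under 0.05 after Benjamini-Hochberg adjustment, NK cells were higher for 150 of the 12128 genes (1.24%) and lower for 132 (1.09%), or for 137 and 79 without the TMM factor, which moved the median of all genes by 0.20. With the pool as a replicate block the counts were 517 (4.26%) and 482 (3.97%), in a fit with 1 residual degree of freedom. At an unadjusted p under 0.05, limma had 789 genes (6.51%) higher and 764 (6.30%) lower in NK cells. With 2 pools per cell type, limma joins each gene's own spread between pools to a spread estimated over all genes tested. In the fit with the replicate block, a gene's own part has 1 residual degree of freedom. The small p-values of that fit therefore reflect mostly the spread shared over genes, not that of each gene between pools. No p-value covers more than these 2 pools. In bulk RNA, fewer cells that make a transcript and less of it per cell cannot be told apart.

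Every one of these chemokine genes stood higher in both NK libraries than in both T libraries, and 3 of the 4 passed the limma test. Xcl1 differed most, 14.9-fold by the group means, then Ccl5 at 6.04-fold, Ccl4 at 5.86-fold and Ccl3 at 5.13-fold. Xcl1, Ccl4 and Ccl5 were past the threshold as higher in NK cells, against 1.24% of all genes tested, and Ccl3 was not. Both NK values above both T values was found for 22.1% of all genes tested. With any library left out limma has 1 residual degree of freedom and called 0 genes at all (752 to 1759 at an unadjusted p under 0.05), so values without a library come from edgeR's quasi-likelihood test on the recovered reads, an alternative chosen after seeing the data.

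Xcl1, the ligand for dendritic cells, had 179 and 124 normalized CPM in NK pools 1 and 2, against 10.5 and 9.92 in T pools 1 and 2. The T values lay close together, but on only 19 and 28 reads. The T pool 1 to pool 2 ratio was 1.055, with a 95% counting interval of 0.557 to 1.96. The NK libraries lay far above the T libraries, on 440 and 351 reads. The means were 152 ± 38.6 in NK cells and 10.2 ± 0.38 in T cells (SD, n = 2 each). The log2 fold change was 3.75 (SE 0.40, limma adjusted p = 9.19e-04), which ranked 61, with 0.495% of the genes tested above it. Within pool 1 the NK to T ratio was 17.1 (counting interval 10.8 to 28.7), and within pool 2 it was 12.5 (8.53 to 19.15). These are exact 95% Clopper-Pearson intervals, which cover counting error only, and they overlapped between the pools. The edgeR adjusted p was 5.30e-04 on all libraries and 2.55e-04 or lower without any one of them.

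Ccl5 (RANTES), which draws T cells and myeloid cells, was the most abundant of these transcripts in all 4 libraries. It had 1032 and 1402 normalized CPM in NK pools 1 and 2, against 271 and 131 in T pools 1 and 2. The means were 1217 ± 262 in NK cells and 201 ± 99.0 in T cells (SD, n = 2 each), and the log2 difference was 2.66 (SE 0.37, limma adjusted p = 0.00472). The pools went opposite ways, since NK pool 1 was below NK pool 2 while T pool 1 was above T pool 2. The NK to T ratio was therefore 3.80 (counting interval 3.45 to 4.20) in pool 1 and 10.7 (9.59 to 11.9) in pool 2, with intervals that did not overlap. With 1 library per cell type and pool, this difference compares libraries and was not tested over replicates. The edgeR adjusted p was 0.00403 on all libraries and 0.001065 or lower without any one of them.

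The 5 NK markers held 3722 and 3511 reads in NK pools 1 and 2, against 105 and 342 in T pools 1 and 2, beside 493 and 371 Ccl5 reads in the T pools. Ncr1, the NK receptor NKp46, had 1637 and 1034 reads in NK pools 1 and 2, against 0 and 4 in T pools 1 and 2, and Klrb1c, another NK receptor gene, had 368 and 328 in NK pools, against 0 and 1 in T pools. Most NK marker reads in T pools were of Klrd1, a receptor gene that CD8+ T cells also express, with 834 and 629 reads in NK pools against 66 and 205 in T pools. Eomes had 697 and 1209 in NK pools against 38 and 92 in T pools, and Klre1 had 186 and 311 in NK pools against 1 and 40 in T pools. T pools 1 and 2 also differed in other genes, with Ccr7, the lymph node homing receptor, at 52.9 and 348. Of the 7 T cell markers, Cd8a had 113 and 204 there, Cd8b1 90.9 and 114, and Cd3g 133 and 240. The others were lower in T pool 2, with Cd4 at 207 and 117, Cd3d at 228 and 195, Cd3e at 334 and 240, and Trac at 1068 and 791. The part of these genes' cells in the Ccl5 difference between T pools was not tested.

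**Figure D1:**
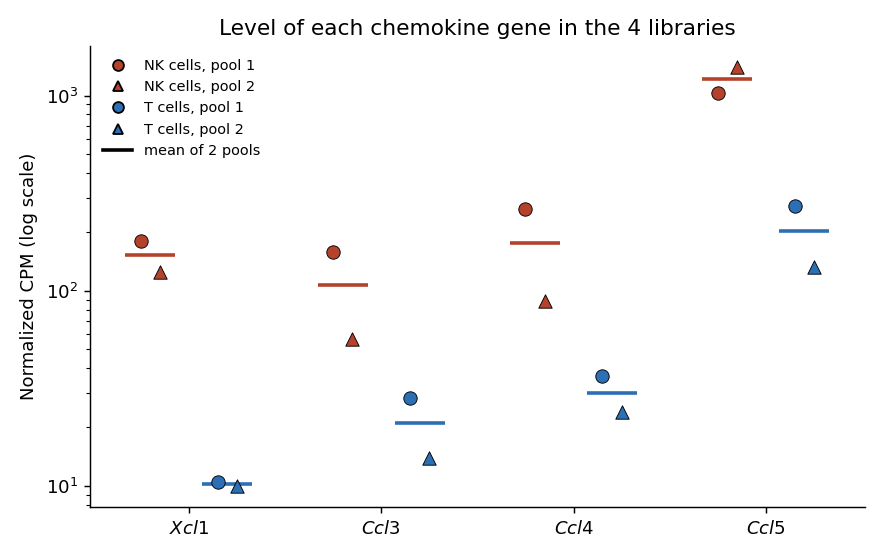
Normalized CPM on a log axis of Xcl1, Ccl3, Ccl4 and Ccl5 in NK libraries (red) and T libraries (blue), with circles for pool 1, triangles for pool 2 and lines for the mean of 2 pools. NK points lie above T points for each gene. The T points of Xcl1, 10.5 and 9.92 on 19 and 28 reads, lie closest together.

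Ccl4 and Ccl3, the MIP-1 chemokines, were highest in NK pool 1 and lowest in T pool 2. Ccl4 had 264 and 88.6 normalized CPM in NK pools 1 and 2, against 36.3 and 23.7 in T pools 1 and 2. Its means were 176 ± 124 in NK cells and 30.0 ± 8.91 in T cells (SD, n = 2 each), with a log2 difference of 2.34 (SE 0.50, limma adjusted p = 0.0377). Ccl4 passed narrowly, and its call was lost with a pseudocount of 0.25 (adjusted p = 0.0853), without the TMM factor (0.05485) and on reads outside ribosomal RNA genes (0.06035). Without NK pool 1 its edgeR log2 fold change was 1.55 with adjusted p = 0.234.

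Ccl3 had 158 and 56.7 normalized CPM in NK pools 1 and 2, against 28.1 and 13.8 in T pools 1 and 2. Its means were 107.5 ± 71.8 in NK cells and 20.95 ± 10.1 in T cells (SD, n = 2 each), with a log2 difference of 2.21 that missed the threshold (SE 0.54, limma adjusted p = 0.0678). With the pool as a replicate block its limma adjusted p was 1.63e-07, and edgeR gave 0.0434 and DESeq2 0.00301. Without NK pool 1 the edgeR log2 fold change was 1.43 (adjusted p = 0.441), and without T pool 2 it was 1.90 (adjusted p = 0.08545).

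Within pool 1 the NK to T ratio was 7.25 for Ccl4 (counting interval 5.62 to 9.49) and 5.63 for Ccl3 (4.20 to 7.70). Within pool 2 it was 3.73 for Ccl4 (2.84 to 4.965) and 4.105 for Ccl3 (2.88 to 5.985). All 8 within-pool ratios of the chemokines had intervals above 1. The pool 1 interval of Ccl4 lay above that of pool 2, and those of Ccl3 overlapped.

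**Figure D2:**
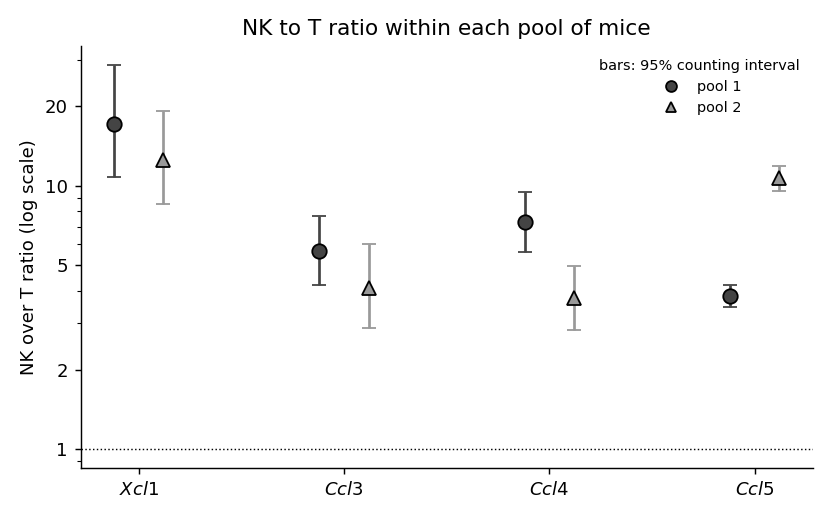
Ratio of normalized CPM in NK over T cells on a log axis, within pool 1 (dark circles) and pool 2 (grey triangles), with exact 95% counting intervals as bars and a dotted line at 1. Xcl1 lies highest in both pools, at 17.1 and 12.5, and Ccl5 is the gene whose ratio was larger in pool 2, at 10.7 against 3.80 in pool 1.

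Levels of different genes are comparable only per length, so normalized CPM was divided by kb of annotated exon. On that scale NK cells held Ccl5 at 1268 ± 273, against 209.9 ± 103 for T cells (SD, n = 2 each, as for the next 3 genes). Xcl1 reached 290.1 ± 73.7 in NK libraries, against 19.5 ± 0.73 in T libraries. Ccl4 reached 267 ± 187 in NK libraries, against 45.5 ± 13.5 in T libraries, and Ccl3 reached 140.3 ± 93.7 in NK libraries, against 27.4 ± 13.2 in T libraries. In NK cells the order was Ccl5, Xcl1, Ccl4 and Ccl3, and among neighbours only Ccl5 and Xcl1 had pool values that did not overlap. In T cells the order was Ccl5, Ccl4, Ccl3 and Xcl1, and among neighbours only Ccl5 and Ccl4 had pool values that did not overlap.

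Among the genes tested, ranked by level per kb, Ccl5 was at rank 36 and 25 in NK pools 1 and 2 and at rank 119 and 248 in T pools 1 and 2. Xcl1 was at rank 111 and 153 in NK pools and at rank 1520 and 1669 in T pools. Ccl4 was at rank 93 and 264 in NK pools and 554 and 878 in T pools, and Ccl3 at 174 and 451 in NK pools and 819 and 1760 in T pools. The Ccl5 exons include a retained-intron transcript of 668 bases, and on the coding transcript of 532 bases alone its level per kb was 2288 ± 492 in NK libraries, against 379 ± 186 in T libraries.

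Together the 4 transcripts took 0.285% and 0.289% of the reads outside ribosomal RNA genes in NK pools 1 and 2, against 0.0639% and 0.0305% in T pools 1 and 2. The total was nearly the same in both NK pools, but its make-up was not. Ccl5 made up 53.1% of the summed level per kb in NK pool 1 and 76.6% in NK pool 2, against 71.7% and 65.2% in T pools 1 and 2. Xcl1 made up 16.9% and 12.5% in NK pools, against 5.07% and 9.04% in T pools. Ccl4 made up 19.7% and 7.04% in NK pools, against 14.0% and 17.1% in T pools.

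**Figure D3:**
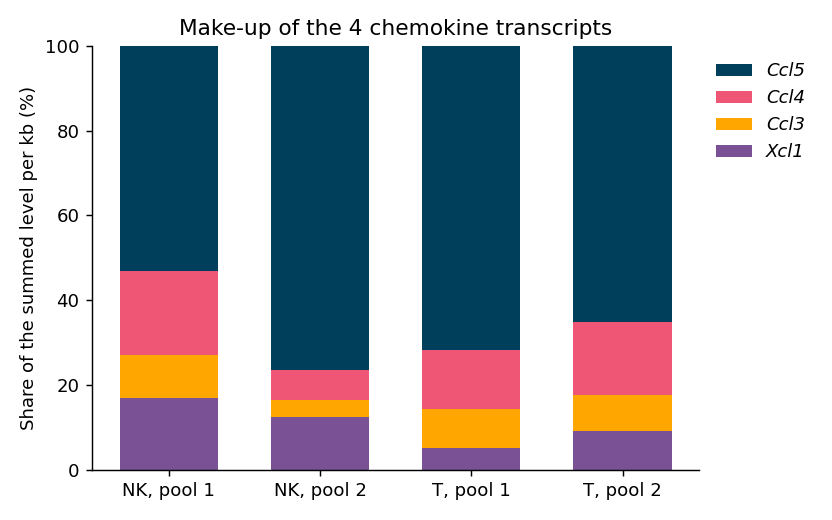
Share of the summed level per kb of exon taken by Xcl1, Ccl3, Ccl4 and Ccl5 in each library, as stacked bars in percent that add up to 100, with NK libraries on the left and T libraries on the right. Ccl5 takes 53.1% to 76.6% of each bar, and the Xcl1 share is 16.9% and 12.5% in NK libraries and 5.07% and 9.04% in T libraries.

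Ratios of reads between these genes within a library do not depend on how the library was scaled. The Ccl4 to Ccl3 ratio varied least, at 1.67 and 1.56 in NK pools 1 and 2 and 1.29 and 1.72 in T pools 1 and 2, a 1.33-fold span with overlapping counting intervals. The Ccl5 to Xcl1 ratio was 5.77 and 11.3 in NK pools, against 25.95 and 13.25 in T pools. The Ccl3 to Xcl1 ratio was 0.884 and 0.456 in NK pools, against 2.68 and 1.39 in T pools, and the Ccl4 to Xcl1 ratio was 1.47 and 0.712 in NK pools, against 3.47 and 2.39 in T pools. By these point values Xcl1 took a larger part relative to each CC gene in both NK libraries than in both T libraries. Counting intervals overlapped between NK pool 2 (10.1 to 12.6) and T pool 2 (9.02 to 20.2) for Ccl5 over Xcl1. Between NK pool 1 and T pool 2 they overlapped for Ccl3 over Xcl1 (0.769 to 1.02 and 0.835 to 2.35). The same held for Ccl4 over Xcl1 (1.30 to 1.67 and 1.52 to 3.86). As log2 ratios, NK minus T, the differences were -1.20 for Ccl5 over Xcl1, -1.49 for Ccl4 over Xcl1 and -1.61 for Ccl3 over Xcl1. Each had an exact 2-sided permutation p = 0.333 (adjusted p = 0.667 over the 6 pairs), which is the smallest p that 2 against 2 libraries allow. The Ccl5 to Ccl4 ratio was 3.92 and 15.8 in NK pools, against 7.47 and 5.54 in T pools, and did not separate the cell types.

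Ccl3 and Ccl4 were higher in pool 1 than in pool 2 of both cell types, and so were macrophage genes. The level in NK pool 1 over that in NK pool 2 was 2.79 for Ccl3 (counting interval 2.31 to 3.37), 2.97 for Ccl4 (2.57 to 3.455), 1.44 for Xcl1 (1.25 to 1.66) and 0.736 for Ccl5 (0.700 to 0.774). In T cells the pool 1 to pool 2 ratio was 2.03 for Ccl3 (1.31 to 3.17), 1.53 for Ccl4 (1.07 to 2.18), 1.055 for Xcl1 (0.557 to 1.96) and 2.065 for Ccl5 (1.80 to 2.37). The 12 macrophage and monocyte markers summed to 1655 and 506 in NK pools 1 and 2, against 832 and 218 in T pools 1 and 2. That gives pool 1 to pool 2 ratios of 3.27 in NK cells and 3.82 in T cells. Ly6c2 was the largest of them in each library, at 662 and 298.5 in NK pools and 594 and 192 in T pools. All 12 had reads in both NK libraries, and 11 and 8 of them in T pools 1 and 2, with Adgre1, C1qa, C1qb and Fcgr1 at 0 in T pool 2. Without Ly6c2 and Lyz2, left out after their values were seen, the sums were 483 and 77.3 in NK pools and 62.8 and 9.21 in T pools. The pool 1 to pool 2 ratios of those sums were 6.25 in NK cells and 6.81 in T cells. Of the 12 markers 0 passed the limma test, and 9 were higher in NK cells at an unadjusted limma p under 0.05, against 6.51% of all genes. By edgeR 0 passed, by DESeq2 2 were higher in NK cells, against 1.81% of all genes, and with the replicate block 8, against 4.26%. The part of macrophage RNA in the Ccl3 and Ccl4 differences was not tested.

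Markers of other cells that can make these chemokines were also read out. Of 6 mast cell and basophil markers, Cpa3, Fcer1a, Ms4a2 and Gata2 had 0 reads in all libraries, and the summed list stood at 15.5 and 85.8 in NK pools and 7.71 and 43.2 in T pools, mostly from Kit. The 6 neutrophil markers summed to 24.8 and 25.5 in NK pools and 94.7 and 12.8 in T pools, with Csf3r at 0 in NK cells and Mmp9 at 0 in T cells. The 7 dendritic cell markers summed to 28.9 and 37.6 in NK pools and 12.7 and 0.71 in T pools, with Xcr1, Flt3, Cd209a and Siglech at 0 in NK cells. Most of that sum in NK pools was Itgax, an integrin gene that NK cells also express. It had 23.6 and 30.5 in NK pools against 1.65 and 0 in T pools (limma adjusted p = 0.01245). Its T mean was 0.826, so Itgax reached the filter mean of 1 only through NK values. The 4 B cell markers summed to at most 1.06 in any library. The platelet list had Itga2b and Gp9 at 0 in NK cells, while Pf4 stood at 47.6 and 34.0 in NK pools against 0 and 0.71 in T pools. Ppbp, also of that list, had 0 and 4.96 in NK pools and 0 in both T pools. Gamma-delta T cells, another source of XCL1, share Trdc with NK cells, and the 5 markers summed to 315 and 300 in NK pools against 120.0 and 70.9 in T pools. Trdc itself had 273 and 285 in NK pools against 68.8 and 23.0 in T pools (limma adjusted p = 0.0111), while Tcrg-C2 had 7.32 and 1.06 in NK pools against 17.6 and 39.0 in T pools (limma adjusted p = 0.108). Tcrg-C4 had 35.0 and 11.35 in NK pools against 22.6 and 6.38 in T pools (limma adjusted p = 0.741). Tcrg-C1 had 0 and 2.13 in NK pools against 9.91 and 2.13 in T pools (limma adjusted p = 0.4955). The 4 fibroblast markers summed to 8.95 and 14.9 in NK pools and 0.551 and 0 in T pools. The NK sum was mostly Col1a2 (limma adjusted p = 0.0342), with Col1a1 and Dcn at 0 in NK cells. Col1a2 had 0 T reads and passed the filter through NK values alone, so its sign was fixed in advance. The tumour keratins Krt8, Krt18 and Krt19 were at 0 throughout, while the tumour marker Epcam had 0 and 2.48 in NK pools against 6.61 and 2.835 in T pools. The part of these cells in the chemokine differences was not tested.

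**Figure D4:**
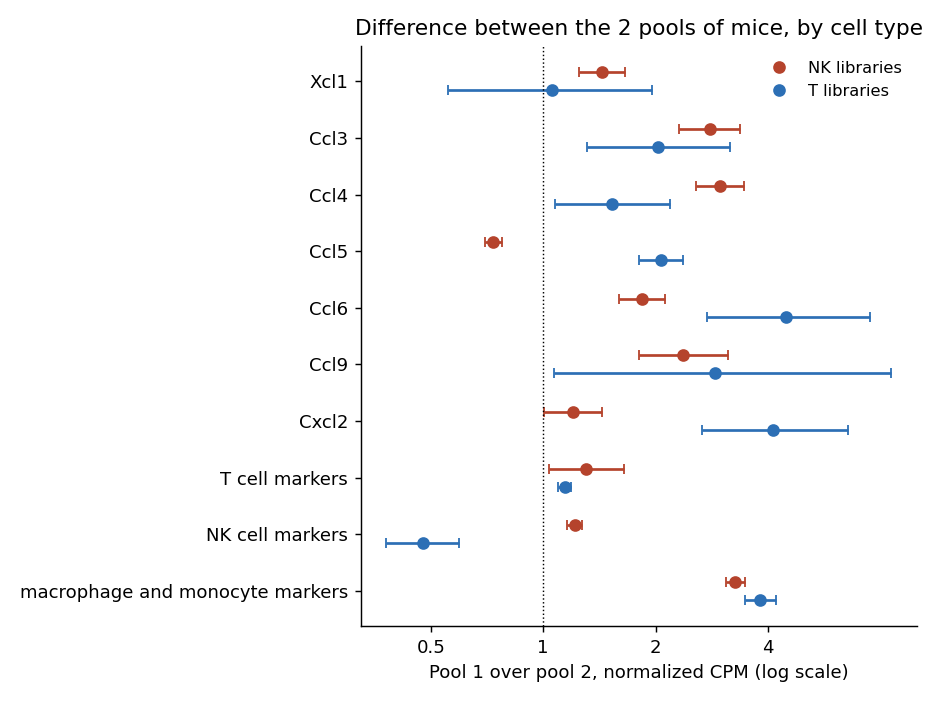
Ratio of normalized CPM in pool 1 over pool 2 on a log axis, within NK libraries (red) and T libraries (blue), for the 4 chemokine genes, for Ccl6, Ccl9 and Cxcl2, and for summed marker lists, with exact 95% counting intervals as bars and a dotted line at 1. Ccl3 and Ccl4 lie above 1 in both cell types, as do the macrophage and monocyte markers at 3.27 and 3.82, and Ccl5 lies at 0.736 in NK and 2.065 in T libraries.

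In the wider chemokine family, 21 of the 23 ligand genes tested had a positive log2 fold change. For 6 of the 23, with 0 T reads, the filter was passed through NK values alone, so that sign was fixed in advance. Pf4 and Cxcl1, with T means of 0.354 and 0.807, also reached the filter mean of 1 only through NK values. Of 33 chemokine ligand genes 7 had no reads and 23 were tested, of which NK cells were higher for 9 and lower for 0, against 1.24% and 1.09% of all genes. By edgeR these were 11 and 0, against 1.42% and 1.31% of all genes, by DESeq2 11 and 0, against 1.81% and 1.82%, and with the replicate block 14 and 0, against 4.26% and 3.97%. With a pseudocount of 0.25 limma called 3 ligands higher in NK cells, and without NK pool 1 edgeR called 7. The median log2 fold change of the 23 was 2.34, also with the 6 genes that had 0 T reads at their lower bound, and that of all genes was 0.02. Beside Xcl1, Ccl4 and Ccl5, the called genes were Pf4, Ccl2, Ccl7, Cxcl3, Ccl6 and Ccl9. Pf4, which platelets and some myeloid cells make, had a log2 difference of 4.98 (SE 0.65, limma adjusted p = 0.00317). It rests on 117 and 96 reads in NK pools against 0 and 2 in T pools. The monocyte attractant Ccl2 had 89.9 and 29.1 in NK pools against 2.75 and 0 in T pools (log2 difference 4.75, SE 0.78, limma adjusted p = 0.00985), and Ccl7 had 35.0 and 19.2 in NK pools against 0 and 2.48 in T pools. Ccl6 and Ccl9 are neighbours of Ccl3 and Ccl5 on chromosome 11, and Ccl9 lies 42.4 kb from Ccl5. Ccl6, which attracts macrophages, had 212 and 115 in NK pools 1 and 2, against 36.3 and 8.15 in T pools 1 and 2 (log2 difference 3.09, SE 0.60, limma adjusted p = 0.0244). Ccl9 had 67.1 and 28.4 in NK pools against 7.16 and 2.48 in T pools. Cxcl3, a neutrophil attractant, had 13.02 and 12.8 in NK pools and 0 reads in both T pools, so it was at least 19.9-fold higher if the T group is set at a floor of 3 reads in all.

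Not every chemokine gene stood higher in NK cells. Cxcl10, the interferon-induced ligand of CXCR3, had 33.0 and 6.38 in NK pools against 41.9 and 12.8 in T pools (log2 fold change -0.62, SE 0.76, limma adjusted p = 0.79). Ccl1, a ligand of CCR8, was the other of the 23 with a negative value, at -0.29 (SE 0.94, limma adjusted p = 0.932), and both were named after their values were seen. Cxcl2, another neutrophil attractant, had 107 and 89.3 in NK pools against 42.4 and 10.3 in T pools, and it did not pass (log2 fold change 2.16, SE 0.57, limma adjusted p = 0.0913; 2.17e-07 with the replicate block).

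**Figure D5:**
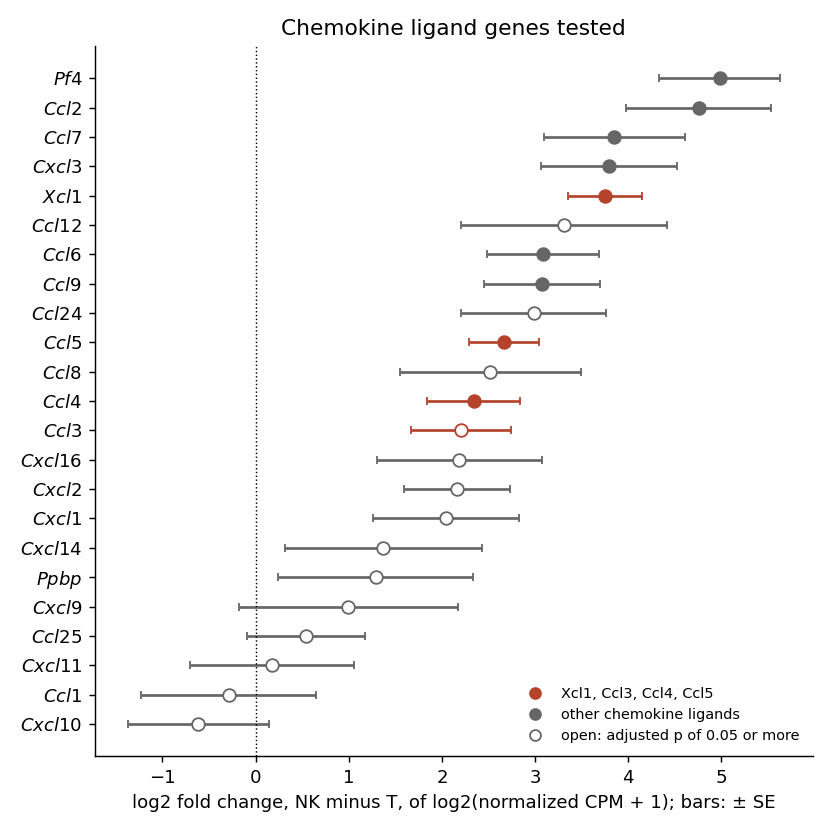
Log2 fold change, NK minus T, of the 23 chemokine ligand genes tested, with the SE as bars, the 4 chemokines in red, other ligands in grey, and open points where the limma adjusted p was 0.05 or more. All points but Ccl1 and Cxcl10 lie to the right of 0, where the 6 genes with 0 T reads had to lie. Xcl1, at 3.75, is the highest of the red points.

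Ccr1, a receptor of CCL3 and CCL5, had 16.7 and 10.3 in NK pools against 14.9 and 1.77 in T pools, with overlapping groups (log2 fold change 1.09, SE 0.80, limma adjusted p = 0.632). Xcr1, the receptor of XCL1, had 0 reads in both NK libraries and 2 and 0 reads in T pools 1 and 2, and 3 reads would be 1.22 and 1.06 normalized CPM in the NK libraries. Ackr1 and Ackr2, scavengers of CC chemokines, had 0 reads in all 4 libraries, and Ccr3 had at most 2.

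Of 12 other chemokine receptors tested, NK cells were higher for 0 and lower for 4 by limma, against 1.24% and 1.09% of all genes. They were also 0 and 4 by edgeR, against 1.42% and 1.31%, and by DESeq2, against 1.81% and 1.82%. At an unadjusted limma p under 0.05, 1 was higher and 7 lower, against 6.51% and 6.30% of all genes. With the replicate block these were 1 and 6, against 4.26% and 3.97%. The median log2 fold change of the 12 was -1.79, or -2.13 with the 4 genes that had 0 NK reads at their bound. Those with 0 NK reads passed the filter through T values alone, so their sign was fixed in advance. Cxcr5, with an NK mean of 0.177, also reached the filter mean of 1 only through T values. Cxcr6, a receptor of tissue lymphocytes, had 22.8 and 36.2 in NK pools against 161 and 175 in T pools (log2 fold change -2.51, SE 0.37, limma adjusted p = 0.00593). Ccr4 and Ccr9 had 0 reads in both NK libraries, and with the NK group at a floor of 3 reads in all, their T levels were at least 25.0-fold and 35.3-fold higher. Ccr7, at 4.07 and 3.19 in NK pools and the T values given above, was the fourth called gene (log2 difference -4.90, SE 0.73, limma adjusted p = 0.00625). Ccr2, the monocyte receptor, had 1062 and 570.5 in NK pools against 411 and 43.2 in T pools and did not pass (limma adjusted p = 0.159, and 9.88e-17 with the replicate block). Cxcr4, a retention receptor, had 14.6 and 58.2 in NK pools against 92.0 and 127 in T pools and did not pass (limma adjusted p = 0.148, and 5.50e-06 with the replicate block).

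Among cytokines that lymphocytes secrete with these chemokines, 0 of 9 tested passed limma in either direction, against 1.24% and 1.09% of all genes. At an unadjusted limma p under 0.05, 2 were higher and 2 lower in NK cells, against 6.51% and 6.30% of all genes. By edgeR 0 passed, by DESeq2 1 and 1, against 1.81% and 1.82%, and with the replicate block 2 and 2, against 4.26% and 3.97%. Ifng, interferon gamma, had 67.5 and 46.8 in NK pools against 82.1 and 30.8 in T pools, with overlapping groups (log2 fold change 0.15, SE 0.48, limma adjusted p = 0.929). Ltb, lymphotoxin beta, had 39.1 and 37.9 in NK pools against 108 and 58.5 in T pools (log2 fold change -1.03, SE 0.41, limma adjusted p = 0.30; 0.04075 with the replicate block). The median log2 fold change of the 9 was -0.29.

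Of 16 transcription factors that act in effector lymphocytes, NK cells were higher for 2 and lower for 0 by limma, against 1.24% and 1.09% of all genes. These were 2 and 0 by edgeR, against 1.42% and 1.31%, and 2 and 1 by DESeq2, against 1.81% and 1.82%. At an unadjusted limma p under 0.05, 4 were higher and 4 lower, against 6.51% and 6.30% of all genes. With the replicate block 4 and 4 passed, against 4.26% and 3.97%. Irf8, an interferon regulatory factor of NK and myeloid cells, had 1168 and 1151 in NK pools against 49.6 and 105 in T pools (log2 fold change 3.99, SE 0.37, limma adjusted p = 3.96e-04). Eomes, a T-box factor that marks NK cells and is among the 5 NK markers summed above, had 284 and 429 in NK pools against 20.9 and 32.6 in T pools. The 2 most abundant uncalled factors were Bhlhe40, at 432 and 632 in NK pools against 180.1 and 303 in T pools (limma adjusted p = 0.147, and 0.001205 with the replicate block), and Runx3, at 309.9 and 531 in NK pools against 421 and 229.6 in T pools (limma adjusted p = 0.731). Klf13, a factor that binds the CCL5 promoter in human T cells, had 105 and 182 in NK pools against 229.6 and 406 in T pools and did not pass (limma adjusted p = 0.211, and 0.00205 with the replicate block). It was named after its values were seen, and its part in the Ccl5 difference was not tested.

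Regulators of mRNA decay and feedback had 0 of 11 passing in either direction by limma and by edgeR. The shares of all genes were 1.24% and 1.09% by limma and 1.42% and 1.31% by edgeR. At an unadjusted limma p under 0.05, 1 was higher and 6 lower in NK cells, against 6.51% and 6.30% of all genes. DESeq2 gave 0 and 1, against 1.81% and 1.82%, and the replicate block 1 and 4, against 4.26% and 3.97%. In 7 of the 11 both T values lay above both NK values, against 21.3% of all genes tested. Nfkbia, the NF-kB inhibitor, had 1161 and 1382 in NK pools against 1877 and 2452 in T pools (log2 fold change -0.76, SE 0.30, limma adjusted p = 0.298). Dusp2, a phosphatase of MAP kinases, had 470.2 and 551 in NK pools against 195 and 317 in T pools (log2 fold change 1.03, SE 0.33, limma adjusted p = 0.17; 0.00574 with the replicate block). Of 14 genes of G protein and chemokine signalling 0 passed by limma in either direction. There was 1 in each direction at an unadjusted limma p under 0.05 and with the replicate block, and 0 and 1 by edgeR and by DESeq2. The shares of all genes are those given for the decay regulators. Rgs1 had 639 and 642 in NK pools against 496 and 339.8 in T pools, and Rgs2 had 578 and 599 in NK pools against 789 and 557 in T pools. Both encode regulators that shorten G protein signalling.

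Granule proteins, which share secretory cells with these chemokines, had 4 of 11 tested genes higher and 0 lower in NK cells, against 1.24% and 1.09% of all genes, and 6 and 0 with the replicate block, against 4.26% and 3.97%. The called genes were Gzma, Gzmb, Prf1 and Nkg7, of which Gzma had the largest log2 difference, 8.64 (SE 0.30, limma adjusted p = 3.17e-07). Prf1 encodes perforin, which forms pores, and had a log2 difference of 3.57 (SE 0.47, limma adjusted p = 0.00317). The median log2 fold change of the 11 was 1.18. Nkg7, a granule membrane protein, had 672 and 701 in NK pools against 177 and 199 in T pools (log2 fold change 1.86, SE 0.29, limma adjusted p = 0.0071). Srgn, the proteoglycan serglycin that packs granules, had 805 and 1090 in NK pools against 434 and 977 in T pools (limma adjusted p = 0.634), and Lamp1, a lysosomal membrane protein, 132 and 111 in NK pools against 54.0 and 52.1 in T pools (limma adjusted p = 0.125, and 0.00565 with the replicate block).

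The genes whose profile over the 4 libraries was most like each chemokine were sought among 6559 named genes averaging 10 normalized CPM or more, by the Euclidean distance between centred log2(value + 1) profiles. For Xcl1 these were Klra5 at a distance of 0.28, Gzmb at 0.32 and Samd3 at 0.33. Klra5 encodes an Ly49 family receptor and Gzmb the protease granzyme B, at 3263 and 1966 in NK pools against 165 and 208 in T pools. For Ccl5 they were Tcf4 at 0.27, Plcg2 at 0.34 and Prag1 at 0.41, and Plcg2, a phospholipase of receptor signalling, had 44.3 and 52.5 in NK pools against 7.71 and 3.54 in T pools. For Ccl3 they were Clec4n at 0.23, Pla2g7 at 0.24 and Ifi202b at 0.27, and for Ccl4 Pla2g7 at 0.25, Clec4n at 0.5125 and Zfp512 at 0.52. Clec4n encodes the myeloid lectin dectin-2, at 36.2 and 13.1 in NK pools against 6.61 and 2.13 in T pools. Pla2g7 encodes a secreted phospholipase of macrophages, at 30.1 and 8.15 in NK pools against 3.85 and 1.77 in T pools. Neither passed (limma adjusted p = 0.159 and 0.203). Ifi202b had 56.95 and 22.0 in NK pools against 12.7 and 5.315 in T pools (limma adjusted p = 0.1535). Zfp512 had 52.1 and 26.6 in NK pools against 7.16 and 3.90 in T pools (limma adjusted p = 0.03835). Ccl3 and Ccl4 lay 0.31 apart, and 3 other genes were closer to Ccl3 and 1 was closer to Ccl4. Ccl5 lay 1.42 from Ccl3 and 1.45 from Xcl1. Closer than the nearest of the other chemokines lay 54 genes for Xcl1 and 125 genes for Ccl5, and with 4 libraries the distances are a description.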

How the data were processed

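The authors deposited 1 normalized signal column per library for 55450 genes, per the file headers. Per the submitters' processing notes the tools included STAR 2.7.0f, Bowtie2 2.3.4.1, FastQC and limma, with the build GRCm38.p6; the counter, the strand setting and the scaling method were not given in the sources used here. All non-zero values (100%) were whole multiples of what 1 read is worth (0.354 to 0.551), within 0.001 reads, and the implied factors matched recomputed TMM factors, so the values are read as TMM-scaled CPM. Rows without a symbol (0.0198% to 0.0214% of reads) kept their gene identifier, 27 symbols turned into dates were restored, and the highest-mean row was kept per symbol. Ribosomal RNA genes took 36.9% to 52.4% of reads. Every library pair differed beyond counting noise, with chi-square values per degree of freedom between 10.3 and 32.5.

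The test was limma 3.58.1 in R 4.3.3 on log2(value + 1) with a trend in the spread, NK minus T, with Benjamini-Hochberg adjustment over all genes tested. edgeR 4.0.16 (quasi-likelihood) and DESeq2 1.42.0 on the recovered reads, other pseudocounts, filters and scalings, the replicate block and leaving out each library were alternatives. The replicate numbers were taken to pair the libraries because the design text gives 1 pool size per number, and it does not say that both cell types of a number came from the same mice. Across 12128 genes the pool 1 minus pool 2 difference in NK cells correlated with that in T cells at 0.161. limma and edgeR without the block were also run on simulated counts that held no pool effect. That run does not show how the tests behave where pools differ.

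The genes and lists were chosen with earlier results of these data known, Vamp7 was not analysed here, and 1 withheld item is not reported here. Named genes are the 4 chemokines, for each list up to 4 called genes per direction and the 2 most abundant uncalled ones, list genes next to a chemokine gene, and the 3 nearest profiles, with exceptions said in the text. Ratios have exact 95% binomial intervals.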

Additional observations from a re-analysis of the deposited data

Results flagged for a closer look

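Ccl5 moved in opposite directions between the pools of the 2 cell types. Its pool 1 to pool 2 ratio was 0.736 in NK libraries (counting interval 0.700 to 0.774) and 2.065 in T libraries (1.80 to 2.37), a difference of log2 ratios of -1.49, NK minus T. With 1 library per cell type and pool the difference was not tested.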

How the results depend on the processing

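Depth limits the T side, where Xcl1 rests on 19 and 28 reads, and 2 pools per cell type limit every test. Over 10 settings other than leaving out a library, Xcl1 and Ccl5 passed in 10 each, Ccl4 in 7 and Ccl3 in 6, all with NK cells higher. The cause of the changes below was not tested. Ccl3, which missed the threshold in the reported fit, passed with a pseudocount of 5 (log2 fold change 2.01), with no filter (2.21), by edgeR (2.36), by DESeq2 (2.36) and with the replicate block by limma (2.21) and by edgeR (2.26). Ccl4 missed it with a pseudocount of 0.25 (2.37), without the TMM factor (2.56) and on reads outside ribosomal RNA genes (2.33). The replicate block changed no other call of the 4 chemokines.

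Genes higher in NK cells numbered 80 with a pseudocount of 0.25, and 517 and 459 with the replicate block by limma and by edgeR. Genes higher in T cells numbered 83 with a pseudocount of 0.25, 79 without the TMM factor, 221 by DESeq2, and 482 and 433 with the replicate block. Chemokine ligands higher in NK cells numbered 3 with a pseudocount of 0.25, and 14 with the replicate block in either tool. Of the 12 other chemokine receptors, 1 was higher in NK cells with no filter and 1 with the replicate block in either tool.

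With each library left out in turn, limma log2 fold changes ranged from 3.49 to 4.01 for Xcl1, 1.475 to 2.94 for Ccl3, 1.56 to 3.12 for Ccl4 and 2.14 to 3.18 for Ccl5, and 0 genes were called (752 to 1759 at an unadjusted p under 0.05). By edgeR, chosen after seeing the data, they ranged from 3.59 to 4.125 for Xcl1, 1.43 to 2.95 for Ccl3, 1.55 to 3.13 for Ccl4 and 2.135 to 3.21 for Ccl5. Ccl3 passed without NK pool 2 (2.92) and without T pool 1 (2.95), and Ccl4 missed the threshold without NK pool 1 (1.55). The edgeR counts ranged from 159 to 267 genes higher in NK cells (260 without T pool 1, 267 without T pool 2), and from 164 to 232 higher in T cells (205 without NK pool 2, 211 without T pool 1, 232 without T pool 2). They ranged from 7 to 15 ligands (15 without NK pool 2), and among the other receptors from 0 to 2 higher in NK cells (2 without NK pool 2, 1 without T pool 1) and from 3 to 5 higher in T cells.

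The Ccl5 ratio within pool 1 was 4.78 without the TMM factor. The log2 ratios, NK minus T, changed sign for Ccl5 over Ccl4 (-0.72) and Ccl5 over Ccl3 (-0.56) without NK pool 2, and for Ccl4 over Ccl3 (-0.091) without T pool 1. They ranged from -0.72 to 1.30, from -0.56 to 1.37 and from -0.091 to 0.32 over the 4 libraries left out. The Ccl5 level per kb was 1822 in NK cells on the longest transcript, and 2288 in NK cells and 379 in T cells on the coding transcript, by construction of the shorter length.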
